A study of Mus musculus with 2 samples.

Results

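Interleukin-6 family signalling was examined through 9 genes: the ligands Il6, Lif and Clcf1, the receptors Il6ra, Il6st, Osmr and Lifr, the transcription factor Stat3 and the inhibitor Socs3. They were chosen by name among the 32285 genes of 2 single-cell matrices, and all 9 were measured in both. Muscle stem cells (MuSCs) had been sorted from plantaris muscle after sham surgery, or after 5 days of mechanical overload (MOV), in which part of the neighbouring calf muscles is cut away so that the plantaris has to carry more load. Both groups were mice of the Pax7rtTA; TRE-H2B-GFP strain, 26 weeks old, given 2.0 mg/mL doxycycline in their water for 2 weeks. The Pax7 gene drives the doxycycline-dependent activator of the H2B-GFP reporter, so only cells with Pax7 activity during the doxycycline course load the label. The labels list antibodies to VCAM, to CD31 and CD45 and to Sca1 for the sort, while the design text names GFP. By the study's methods the cells taken were positive for VCAM and negative for CD31, CD45 and SCA1. The labels speak of a single mouse and the study's methods of several mice for each condition, which were not resolved into separate samples. Each condition was a single library, so no comparison of conditions has a replicate. The intervals given cover counting error only, and surgery, mouse, sort and library cannot be told apart.

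The IL-6 family cytokines signal through a shared receptor chain, gp130, which is encoded by Il6st. Each ligand brings its own partner: IL-6 binds the IL-6 receptor (Il6ra), leukemia inhibitory factor (Lif) the LIF receptor (Lifr), and oncostatin M its receptor chain Osmr, while Clcf1 acts through the receptor Cntfr. Gp130 activates JAK kinases and STAT3, and STAT3 switches on Socs3, which feeds back to block the receptor, so Socs3 transcript is often read as a trace of recent signalling. In muscle this pathway is known for its part in MuSC proliferation and differentiation.

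Cells were placed in groups by unique molecular identifiers (UMIs, counts of tagged transcript molecules) of marker genes, none of which is one of the 9. MuSC-like cells, called MuSCs here, carried markers such as Pax7, Myf5 and Chodl, and there were 111 in sham and 1488 in MOV. They were divided into states with cycling markers (9 and 704 cells), immediate-early genes (14 and 42), interferon-response genes (21 and 57), quiescence markers (33 and 162), matrix genes (0 and 225) or none of these (34 and 298). The groups outside the MuSCs were myocytes (1 and 150), cells with Pdgfra and other fibroblast markers, called Pdgfra cells (27 and 469), tenocyte-like (15 and 108), myeloid (2 and 73), endothelial (2 and 19), mural (2 and 27) and Schwann-like cells (10 and 76). Droplets with transcripts of mature fibres numbered 497 in sham and 49 in MOV, so MuSCs made up 15.1% of the sham cells kept and 49.8% of those of MOV, although both libraries are labelled as MuSCs. All 6 MuSC markers were present in the MuSCs of both libraries, and the summed level of the 8 Pdgfra-cell markers there was 13.4 CPM (UMIs per 1000000 UMIs of the group) in sham and 30.6 CPM in MOV. Cells with markers of more than 1 class (20 and 158) or of none (31 and 365) were left out of all groups.

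The median MuSC held 8153 UMIs in sham and 22544.5 in MOV. The libraries also shared 44 cell barcodes, and in each pair 1 library held at least 23.1 times as many UMIs as the other. No MuSC was the smaller of such a pair. However, 9 of the 111 sham MuSCs, 6 of the 9 cycling ones among them, carried a shared barcode, and values without all shared barcodes are given for MOV against sham MuSCs and, where a call changes, for Pdgfra cells. Levels below are UMIs of a gene summed over a group and divided by all UMIs of that group, in CPM, and a gene was called higher or lower when the ratio of 2 such levels passed 2-fold with its 95% counting interval on the same side and at least 20 UMIs on both sides together. Levels are compared between groups for the same gene, not between genes. A level is a share of all UMIs and not an amount per cell. Where the cells of a group hold more UMIs, a lower level need not mean fewer UMIs of the gene per cell.

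The sequences of 3 promoters are shown because they hold a match to one of the 2 motifs searched: Socs3, the target of the pathway, and the ligands Il6 and Lif. Each stretch is the 250 bases before the gene start (RefSeq, GRCm38.p6). Capitals mark TTCNNNGAA, the motif bound by STAT factors, in Socs3, and TGANTCA, the motif of the AP-1 family to which the immediate-early factors Fos and Jun belong, in Il6 and Lif. Both motifs read the same on either strand, and they do not overlap in these stretches.
Socs3, chr11:117969367-117969616, minus strand: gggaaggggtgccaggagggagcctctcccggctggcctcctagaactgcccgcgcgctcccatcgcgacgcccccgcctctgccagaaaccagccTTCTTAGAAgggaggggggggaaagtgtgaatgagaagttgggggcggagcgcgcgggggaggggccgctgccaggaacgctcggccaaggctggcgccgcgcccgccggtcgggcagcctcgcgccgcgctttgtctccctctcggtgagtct
Il6, chr5:30012864-30013113, plus strand: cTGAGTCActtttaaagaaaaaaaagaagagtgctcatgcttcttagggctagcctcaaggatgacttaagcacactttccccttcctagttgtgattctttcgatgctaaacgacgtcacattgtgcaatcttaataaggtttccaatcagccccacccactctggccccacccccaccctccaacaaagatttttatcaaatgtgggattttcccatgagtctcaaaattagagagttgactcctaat
Lif, chr11:4257318-4257567, plus strand: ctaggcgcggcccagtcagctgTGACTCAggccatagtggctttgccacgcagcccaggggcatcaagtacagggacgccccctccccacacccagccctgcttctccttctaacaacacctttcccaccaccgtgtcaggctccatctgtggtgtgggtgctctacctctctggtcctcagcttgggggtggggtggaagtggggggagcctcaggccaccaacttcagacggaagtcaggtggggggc

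The STAT motif began 154 bases before the Socs3 start, and among the 8 members with an entry in the promoter table Socs3 was the 1 that held it. The AP-1 motif lay 249 bases before the Il6 start and 228 bases before the Lif start, and in no other member. Of 32851 promoters cut to the same length, 7.02% held the STAT motif and 6.75% the AP-1 motif, so a match is a description of these letters and not evidence of binding. Socs3 is a gene of 3.97 kb on chromosome 11 (117966079 to 117970047, minus strand in GENCODE M21), and Il6 is one of 6.87 kb on chromosome 5 (30013114 to 30019981, plus strand). By GENCODE the Socs3 stretch overlaps an exon of a non-coding transcript of the gene, and the last bases of the Lif stretch overlap its first exon. Osmr and Lifr lie beside each other on chromosome 15, 216 kb apart, and both code for receptor chains that pair with gp130.

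Il6, the founding ligand, was low in MuSCs of both conditions. Sham MuSCs held 9 Il6 UMIs in 6 cells (6.35 CPM) and MOV MuSCs 199 in 116 cells (4.42 CPM). The log2 ratio was -0.52 (-1.48 to 0.63), so no difference was detectable at this depth. Lif, which signals through Lifr and gp130, was lower still: 3 UMIs in 1 sham cell (2.12 CPM) and 75 UMIs in 53 MOV cells (1.67 CPM), a log2 ratio of -0.35 (-1.95 to 1.96). After thinning every cell to 2000 UMIs, 1.80% of sham MuSCs and 0.877% of MOV MuSCs held an Il6 UMI, beside 0% of sham fibre droplets. Without thinning the shares were 5.41% and 7.80%, and 0.201% in the fibre droplets, whose median was 3748 UMIs.

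Clcf1, the ligand that MuSCs did carry, was lower in MOV. Its level was 99.5 CPM in sham MuSCs (141 UMIs) and 31.8 CPM in MOV MuSCs (1430 UMIs), 3.13-fold lower with a log2 ratio of -1.65 (-1.90 to -1.39). The share of thinned cells with a Clcf1 UMI was 21.6% in sham and 8.02% in MOV, beside 0.283% in sham fibre droplets, and without thinning 58.6% and 51.7%, beside 0.201%. Of all Clcf1 UMIs in the cells kept, MuSCs held 83.9% in sham and 79.5% in MOV, and they were 15.1% and 49.8% of those cells. A share of UMIs also depends on depth. The median MuSC held 8153 UMIs in sham and 22544.5 in MOV, and the median cell kept 5365.5 and 21774.

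Among the receptors, 3 of 4 were called lower in MOV MuSCs. Il6st, the shared signalling chain, went from 124 to 48.4 CPM (log2 ratio -1.36, -1.58 to -1.13) and Osmr, the oncostatin M receptor, from 105 to 44.1 CPM (-1.25, -1.49 to -1.003). Il6ra, the chain that binds IL-6 itself, was at 9.88 CPM in sham, from 14 UMIs, and at 3.18 CPM in MOV (-1.64, -2.43 to -0.73). Lifr, the neighbour of Osmr, was at 19.0 and 16.0 CPM, a log2 ratio of -0.25 (-0.81 to 0.36) that includes no change. Stat3, the transcription factor of the pathway, was at 278 CPM in sham and 94.5 CPM in MOV (-1.56, -1.71 to -1.40), and 50.5% and 20.7% of thinned MuSCs held a Stat3 UMI, beside 1.70% of sham fibre droplets. Without thinning these shares were 91.9%, 85.2% and 4.43%.

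Socs3 went the other way from Stat3. Its level was 40.9 CPM in sham (58 UMIs in 23 of 111 cells) and 75.8 CPM in MOV (3411 UMIs in 757 of 1488 cells), a log2 ratio of 0.89 (0.51 to 1.29), under the 2-fold limit. This value rested on few sham cells: the 14 immediate-early MuSCs held 33 of the 58 sham UMIs. Without the immediate-early cells of both libraries the levels were 18.6 and 63.2 CPM and the log2 ratio 1.77 (1.20 to 2.40). It was 3.22 with a mitochondrial limit of 5% in place of 10%, 0.28 with a limit of 20%, 0.41 without shared barcodes and 0.02 as a mean over cells of each cell's own CPM. The thinned share of MuSCs with a Socs3 UMI was 11.7% in sham and 12.1% in MOV, against 20.7% and 50.9% without thinning, where the MOV cells are deeper.

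Thus 5 of the 9 members were called lower in MOV MuSCs and 0 higher, where 7.02% of 13031 genes tested were called lower and 8.53% higher. The median log2 ratio was -1.25 over the members and 0.22 over all genes. Scaling by edgeR's TMM or by DESeq2's size factors shifted every ratio of this comparison by -0.13 or -0.14. Leaving out all shared barcodes kept the 5 calls and gave -2.02 for Clcf1, -1.61 for Il6st, -1.59 for Osmr and -1.91 for Stat3.

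**Figure D1:**
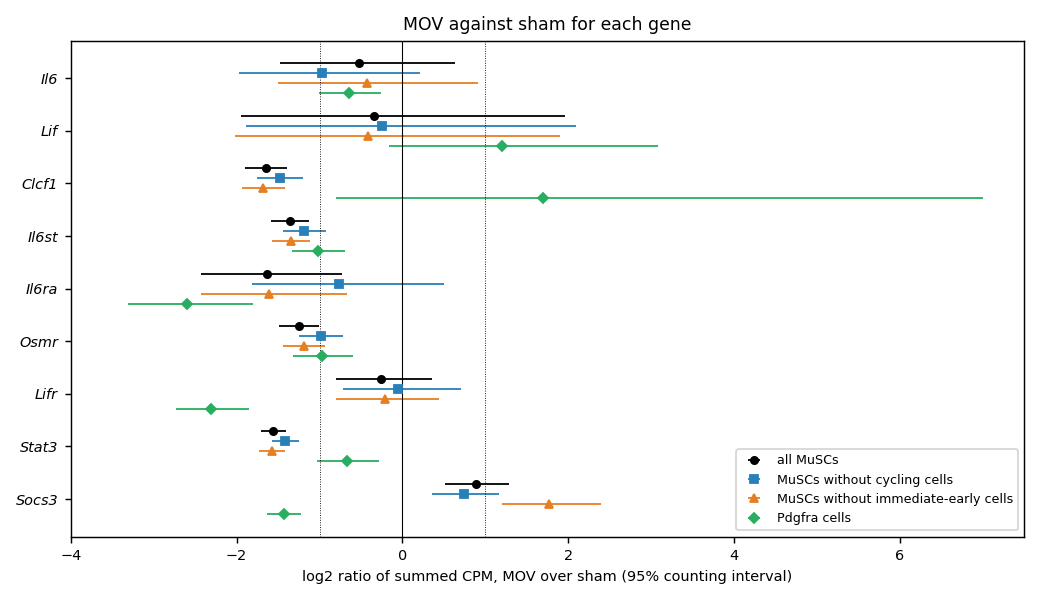
Log2 ratio of summed CPM, MOV over sham, for each of the 9 genes with its 95% counting interval, in all MuSCs, in MuSCs without the cycling or without the immediate-early cells, and in Pdgfra cells. Dotted lines mark 2-fold. Clcf1, Il6st and Stat3 lie left of -1 in all 3 sets of MuSCs, while Socs3 lies right of 0 in MuSCs and at -1.43 in Pdgfra cells.

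Cycling cells made up 47.3% of MOV MuSCs and 8.11% of sham MuSCs. Their weight in the summed levels was larger, at 29540519 of 45028401 UMIs in MOV and 483625 of 1417459 UMIs in sham. The comparison was therefore repeated without them. Then 3 of 9 members were called lower: Clcf1 (134.9 to 48.4 CPM, log2 ratio -1.48), Il6st (152 to 67.0 CPM, -1.18) and Stat3 (384 to 144 CPM, -1.42). Osmr was at -0.98 (-1.24 to -0.72) and Il6ra at -0.77 (-1.82 to 0.50), which no longer passed. Il6 (-0.97, -1.97 to 0.21), Lif (-0.24), Lifr (-0.05) and Socs3 (0.74) were not called either. In that comparison 7.41% of 11463 genes were called lower and 13.7% higher. Without the immediate-early cells, 5 members were called lower and Socs3 alone higher, where 6.71% of genes were called lower and 8.05% higher.

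The MuSCs with quiescence markers offered a comparison within 1 group set by the same marker limits, of 33 sham and 162 MOV cells. Its cells were not alike in the 2 libraries. The quiescence marker Chrdl2 was at 447 CPM in sham and 85.7 CPM in MOV, and Pax7 at 173 and 133 CPM. Fos was at 91.4 and 288 CPM, and the myocyte marker Myog at 0 and 24.6 CPM. The part of such differences in the values below was not tested. Clcf1 was lower there, from 163 to 73.8 CPM (log2 ratio -1.14, -1.60 to -0.65), and so was Stat3, from 396 to 175 CPM (-1.18, -1.47 to -0.87). Il6st stood just outside the limit, at 169 and 85.3 CPM (-0.99, -1.44 to -0.52). Osmr was at -0.54 (-1.06 to 0.01), Lifr at 0.23 (-1.09 to 1.91) and Socs3 at 0.38 (-0.48 to 1.36), while Il6, Lif and Il6ra had too few UMIs. Thus 2 of the 6 members with enough UMIs were called lower and 0 higher, where 6.53% of 7861 genes were called lower and 11.3% higher.

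Other genes of the pathway came from lists of 45 genes in all. In MOV against sham MuSCs, 34 had enough UMIs, of which 2 were called higher and 10 lower, with a median log2 ratio of -0.12 beside 0.22 over all genes. Over all 13031 genes tested, 8.53% were called higher and 7.02% lower. The lower ones among the ligands and receptors included Il11ra1, the interleukin-11 receptor, at 84.7 and 24.0 CPM (log2 ratio -1.82), and Il11. The 87 sham UMIs of Il11 came from 9 cells, with 31 in 1 of them, so this level rests on few cells. Of the inhibitors, Socs1 was at 70.5 and 24.1 CPM (-1.55) and Ptpn2 at 124 and 60.5 CPM (-1.03). Of 15 STAT3 target genes measured, 5 were lower, with Myc at -2.36, Pim1 at -2.15, Vegfa at -1.67 and Cebpb at -1.45, and 2 were higher, Bcl2l1 at 1.45 and Timp1 at 1.13. The kinases Jak1, Jak2 and Tyk2 were called in neither direction.

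Within the MOV library the members differed between MuSC states as shares of all UMIs. The median cycling cell held 33765 UMIs and the median MuSC placed in no state 17308.5. Levels per cell were not compared. In cycling MuSCs 5 of 9 were called lower than in the other MuSCs and 0 higher, where 7.15% of 12973 genes were called lower and 7.85% higher, and the median log2 ratio was -1.07 beside -0.07 over all genes. Osmr was at 29.2 CPM in cycling and 72.5 CPM in the other MuSCs (log2 ratio -1.31, -1.44 to -1.18). Stat3 was at 68.4 and 144 CPM (-1.07, -1.16 to -0.99), Clcf1 at 23.1 and 48.4 CPM (-1.07, -1.22 to -0.92), Il6ra at 2.20 and 5.04 CPM (-1.19) and Lif at 1.12 and 2.71 CPM (-1.28). Il6st (-0.79), Socs3 (-0.63), Lifr (-0.48) and Il6 (-0.24) were below 0 without passing 2-fold. The 9 sham cycling MuSCs sat near the MOV ones for 2 of these, at 31.0 CPM for Osmr and 72.4 CPM for Stat3, but 6 of the 9 carried a shared barcode. Of the 34 wider genes tested, 0 were called higher and 6 lower in MOV cycling MuSCs, including Il11 (-2.25), Il11ra1 (-1.22), Pim1 (-1.28) and Il4ra (-1.20).

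**Figure D2:**
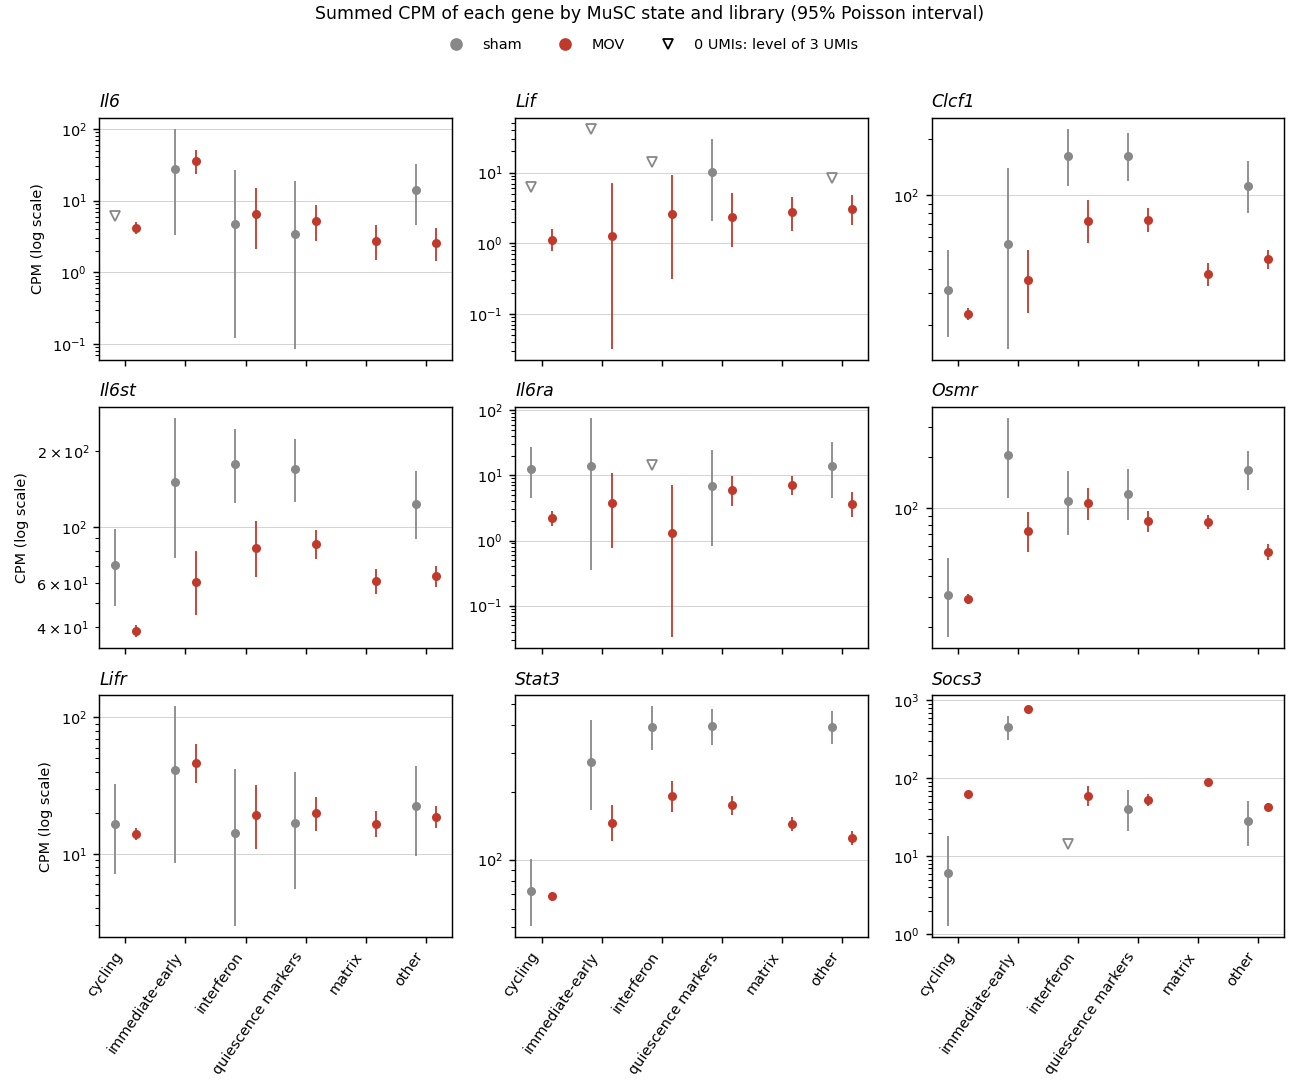
Summed CPM on a log scale for each of the 9 genes in each MuSC state with at least 9 cells, sham in grey and MOV in red, with 95% Poisson intervals. An open triangle marks 0 UMIs, drawn at the level of 3 UMIs. Socs3 peaks in immediate-early MuSCs of both libraries (453 and 774 CPM), while Stat3 and Clcf1 are lowest in cycling MuSCs for MOV and for sham.

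Immediate-early MuSCs were grouped by Fos, Egr1, Atf3 and 5 more genes, and they held the Socs3 peak. In the 42 such MOV cells Socs3 was at 774 CPM, with 615 UMIs in 39 cells, against 63.2 CPM in the other MuSCs, which is 12.3-fold higher (log2 ratio 3.61, 3.49 to 3.74). The 14 sham cells gave 453 against 18.6 CPM, a log2 ratio of 4.61 (3.81 to 5.42) within the other library. After thinning, 70.0% of the MOV cells and 57.1% of the sham cells of this state held a Socs3 UMI, beside 3.40% of sham fibre droplets. Other sham states held few Socs3 UMIs: 3 in the 9 cycling cells (6.20 CPM) and 0 in the 21 interferon cells, which allows up to 14.3 CPM at a limit of 3 UMIs over the group, so their order was not detectable.

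Il6 was at 35.3 CPM in MOV immediate-early MuSCs and 3.87 CPM in the other MuSCs (3.19, 2.56 to 3.77), but from 28 UMIs in 8 of 42 cells. Without the cell that held 12 of them the log2 ratio was 2.47. Lifr was at 46.6 and 15.4 CPM (1.60, 1.08 to 2.07). Stat3 itself was at 146 and 93.5 CPM, a log2 ratio of 0.64 (0.36 to 0.91). Osmr was at 0.74 (0.34 to 1.12), and Clcf1 (0.15), Il6st (0.33), Il6ra (0.26, from 3 UMIs) and Lif (-0.41, from 1 UMI) had intervals that include 0. In all, 3 of 9 members were higher and 0 lower, where 6.91% of genes were called higher and 4.43% lower, with a median of 0.64 beside 0.06 over all genes. Of 34 wider genes 11 were higher and 0 lower, among them the STAT3 target genes Cebpd (2.90), Gadd45g (2.73), Junb (2.52) and Icam1 (2.64) and the inhibitors Cish (2.68) and Socs1 (1.49). The 14 sham cells of this state did not share the 1-sided pattern. Of 25 wider genes tested there, 3 were higher, Junb and Cebpd among them. Another 3 were lower, among them Il11, which was higher in MOV. The median was 0.25 beside -0.45 over all genes, and the share of all genes called was not counted. The groups were cut on immediate-early genes, and the part of that response, rather than of cytokine signalling, in these values was not tested.

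Interferon MuSCs of MOV had 3 members higher and 0 lower: Clcf1 (73.2 against 31.0 CPM, log2 ratio 1.24, 0.83 to 1.62), Osmr (107 against 43.0 CPM, 1.31, 0.97 to 1.63) and Stat3 (193 against 92.7 CPM, 1.05, 0.81 to 1.29). The background was 6.07% of genes higher and 6.71% lower, and the medians were 0.64 and -0.09. Il6st was at 0.78 (0.40 to 1.14), and Il6 (0.55), Lif (0.64), Il6ra (-1.32, from 1 UMI), Lifr (0.28) and Socs3 (-0.33) had intervals that include 0. Of the wider genes 6 were called higher and 0 lower, among them Il11ra1 (1.79) and the kinase Jak2 (1.36). The MuSCs on the other side of these ratios include the cycling ones, which held 29540519 of its 44249681 UMIs. MOV MuSCs placed in no state had Clcf1 at 45.5 CPM, Osmr at 55.1 CPM and Stat3 at 125 CPM. Ratios to non-cycling MuSCs alone were not computed, so these calls are not traits of the interferon state alone. In MuSCs with quiescence markers 2 members were higher and 0 lower, where 4.59% of genes were higher and 8.29% lower, with medians of 0.88 and -0.07. Clcf1 was at 73.8 against 29.3 CPM (1.33, 1.10 to 1.56) and Osmr at 83.7 against 41.8 CPM (1.00, 0.79 to 1.21), right at the limit, with Il6ra (0.98), Stat3 (0.97) and Il6st (0.88) just under it. Socs3 was at -0.55 (-0.81 to -0.30), and Il6 (0.24), Lif (0.55) and Lifr (0.33) had intervals that include 0. Il11ra1 was at 70.2 against 21.2 CPM in the same cells (1.72, 1.48 to 1.96). Cycling cells held 29540519 of the 42506729 UMIs that the quiescence-marker MuSCs were compared with. Interferon MuSCs were near them for Clcf1 (73.2 CPM) and above them for Osmr (107 CPM).

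Matrix MuSCs, a state found in MOV alone, had Il6ra at 7.02 against 2.68 CPM (log2 ratio 1.39, 0.80 to 1.94) and Osmr at 83.0 against 39.1 CPM (1.09, 0.93 to 1.24), the 2 members called higher. Stat3 was at 0.72, Il6st at 0.38, Socs3 at 0.30 and Clcf1 at 0.28, while Il6, Lif and Lifr had intervals that include 0. None was lower, and 4.54% of genes were higher and 8.20% lower, with medians of 0.38 and -0.01. Timp1, an inhibitor of matrix-degrading proteases, was at 1215 against 512 CPM (1.25). Cycling cells held 29540519 of the 39897692 UMIs that the matrix MuSCs were compared with. Osmr was at 83.7 CPM in quiescence-marker and 107 CPM in interferon MuSCs of MOV, so it was not particular to the matrix state. Il6ra was at 5.95 CPM in quiescence-marker MuSCs, from 15 UMIs, and at 3.67 CPM in MuSCs placed in no state. Myocytes, which have left the stem cell pool and express Myog, were below the MuSCs in CPM for all 9 members. The median myocyte held 40958.5 UMIs and the median MuSC 22544.5, and levels per cell were not compared. Of the 9 members 5 were called lower and 0 higher, where 10.5% of 13309 genes were lower and 6.94% higher. The medians were -1.01 and -0.14. Il6 was furthest below, at 0.734 against 4.42 CPM (-2.59, -4.23 to -1.34) from 5 UMIs. Lif was at -1.92 (-4.23 to -0.32) from 3 UMIs, Clcf1 at 11.2 against 31.8 CPM (-1.51, -1.86 to -1.18), Osmr at -1.20 and Socs3 at 37.6 against 75.8 CPM (-1.01, -1.20 to -0.83). Il6ra (-0.98), Lifr (-0.83), Il6st (-0.56) and Stat3 (-0.48) did not pass 2-fold.

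In MOV, Pdgfra cells held more of the ligands Il6 and Lif than any MuSC state. Il6 was at 108 CPM in Pdgfra cells, with 1850 UMIs in 260 of 469 cells, against 4.42 CPM in MuSCs, 24.4-fold higher (log2 ratio 4.61, 4.40 to 4.83). Lif was at 25.1 against 1.67 CPM, 15.1-fold higher (3.91, 3.56 to 4.29). After thinning, 15.2% of Pdgfra cells and 0.877% of MuSCs held an Il6 UMI, and 4.71% and 0.0674% a Lif UMI. Pdgfra cells together held 54.98% of the Il6 UMIs and 64.6% of the Lif UMIs in the MOV cells kept, of which they were 15.7%. Such shares depend on which cells passed the sort and on depth. The median Pdgfra cell of MOV held 35795 UMIs and the median MOV cell kept 21774.

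Clcf1 ran the opposite way, at 8.81 CPM in Pdgfra cells against 31.8 CPM in MuSCs (-1.85, -2.10 to -1.61). Socs3 was at 215 against 75.8 CPM (1.51, 1.44 to 1.57), Il6st at 117 against 48.4 CPM (1.27, 1.18 to 1.36), Osmr at 93.1 against 44.1 CPM (1.08, 0.98 to 1.17) and Il6ra at 8.11 against 3.18 CPM (1.35, 1.01 to 1.70). Lifr was at 0.79 (0.62 to 0.96), under the limit. In all, 6 of 9 members were higher and 1 lower, where 19.1% of 13964 genes were higher and 15.2% lower, with medians of 1.27 and -0.11. Of 36 wider genes 16 were higher and 1 lower, with Cntfr, the receptor of ciliary neurotrophic factor, at 6.54 against 0.222 CPM (4.88) and Il11ra1 at 212 against 24.0 CPM (3.15). The summed immediate-early markers were at 4011 CPM in Pdgfra cells and 1373 CPM in MuSCs of MOV, and their part in the Socs3 ratio was not tested.

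**Figure D3:**
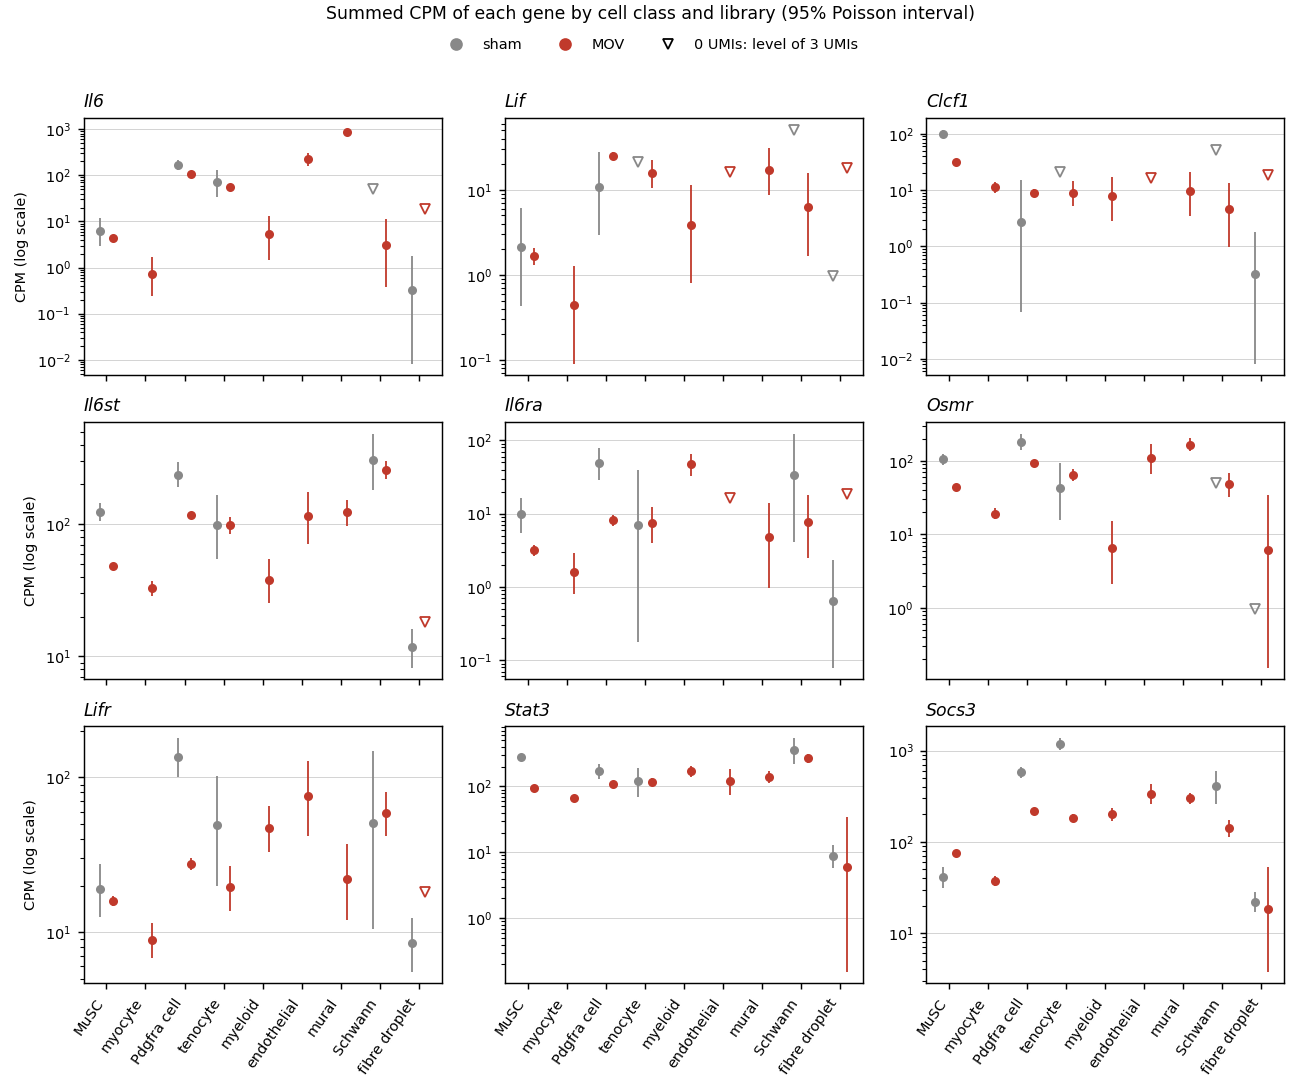
Summed CPM on a log scale for each of the 9 genes in each cell class with at least 9 cells, sham in grey and MOV in red, with 95% Poisson intervals; open triangles mark 0 UMIs, drawn at the level of 3 UMIs. Il6 reaches 890 CPM in MOV mural cells and is at 0.326 CPM in sham fibre droplets, while Clcf1 is highest in MuSCs.

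The sham library gave the same order for Il6 and Clcf1 from fewer cells. Il6 was at 169 CPM in 27 Pdgfra cells against 6.35 CPM in MuSCs (4.73, 3.72 to 5.93). Clcf1 was at 1 UMI, or 2.73 CPM, against 99.5 CPM (-5.19, -10.50 to -2.69). In that library 4 members were higher and 1 lower, where 16.2% of 7065 genes were higher and 15.1% lower, with Socs3 at 581 against 40.9 CPM (3.83), Lifr at 136 against 19.0 CPM (2.84) and Il6ra at 49.1 against 9.88 CPM (2.31). Il6st (0.93) and Osmr (0.80) did not pass 2-fold, and Lif had too few UMIs. With a mitochondrial limit of 5%, which left 5 Socs3 UMIs in sham MuSCs, Socs3 was at 6.10, Lifr at 3.75 and Il6st, then called, at 1.07. As a mean over cells Socs3 was at 2.85 and Il6st, again called, at 1.02, and with a limit of 20% Socs3 was at 3.07 and Il6 at 5.90. Stat3 was at 172 CPM in sham Pdgfra cells against 278 CPM in MuSCs (-0.69, -1.10 to -0.31), and at 108 against 94.5 CPM in MOV (0.19, 0.11 to 0.27).

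Between the conditions, Pdgfra cells of MOV had lower shares of all UMIs for Il6ra (8.11 against 49.1 CPM, log2 ratio -2.60, -3.31 to -1.80), Lifr (27.6 against 136 CPM, -2.31, -2.73 to -1.86), Socs3 (215 against 581 CPM, -1.43, -1.63 to -1.23) and Il6st (117 against 237 CPM, -1.02, -1.33 to -0.70). These 4 members were called lower and 0 higher, where 10.1% of 12022 genes were lower and 6.85% higher. The group also differed in other ways between the libraries. Mki67 was at 8.18 CPM in the 27 sham cells, from 3 UMIs, and at 89.4 CPM in MOV, and the median cell held 11862 and 35795 UMIs. With such depths a lower CPM need not mean fewer UMIs of a gene per cell, and levels per cell were not compared. The comparison was not repeated within 1 kind of Pdgfra cell, so the part of make-up in these calls was not tested. The immediate-early markers summed to 10745 CPM in the sham Pdgfra cells and 4011 CPM in those of MOV, and their part in the Socs3 difference was not tested. Osmr was at -0.97 (-1.33 to -0.60) and Stat3 at -0.67 (-1.03 to -0.28), while Lif (1.20, -0.16 to 3.09) and Clcf1 (1.69, -0.81 to 7.01, from 1 sham UMI) had wide intervals. Il6st lost its call with a mitochondrial limit of 20% (-0.96) and without the cell with the most UMIs of the gene in each library (-0.99), and Osmr was called lower without shared barcodes (-1.23) and as a mean over cells (-1.06). Lif was called higher without its top cells (1.90) and as a mean over cells (1.98), and so was Clcf1 as a mean over cells (3.07), each from at most 4 sham UMIs. The difference in Il6, 169 to 108 CPM (-0.65, -1.01 to -0.26), rested on single cells. It was 0.15 without the cell that held most Il6 in each library, where 1 sham cell had 29 of the 62 UMIs. It was -1.06, called lower, without shared barcodes. With a mitochondrial limit of 20% it was -2.34, also called, since 1 further sham cell, of 35330 UMIs and 15.7% mitochondrial UMIs, held 164 Il6 UMIs.

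Myeloid cells of MOV had the receptor of IL-6 but little of its ligand. Il6ra was at 46.9 CPM (36 UMIs in 22 of 73 cells) against 3.18 CPM in MuSCs, 14.8-fold higher (log2 ratio 3.89, 3.32 to 4.42). Lifr was at 46.9 against 16.0 CPM (1.56, 1.03 to 2.04) and Socs3 at 200 against 75.8 CPM (1.40, 1.15 to 1.63). Osmr was at 6.52 against 44.1 CPM (-2.76, -4.38 to -1.53) and Clcf1 at 7.82 against 31.8 CPM (-2.02, -3.47 to -0.90). So 3 of 9 members were higher and 2 lower, where 15.2% of 13257 genes were higher and 17.7% lower, with medians of 0.84 and -0.41. The 4 Il6 UMIs in myeloid cells gave 5.22 CPM, and the ratio to MuSCs was 0.24 (-1.65 to 1.62) on the log2 scale. Stat3 was at 0.84 (0.58 to 1.10), Lif at 1.23 (-1.08 to 2.83, from 3 UMIs) and Il6st at -0.35 (-0.94 to 0.17), none of them called.

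Other ligands of the family were found outside the MuSCs of MOV. Osm, oncostatin M, had 74 UMIs in 26 myeloid cells (96.5 CPM), 5 UMIs in MuSCs (0.111 CPM) and 0 in Pdgfra, mural, endothelial and Schwann-like cells. Its receptor Osmr was at 93.1 CPM in Pdgfra cells and 167 CPM in mural cells. Cntf, ciliary neurotrophic factor, had 77 UMIs in 27 of 76 Schwann-like cells (119 CPM) against 1.38 CPM in MuSCs. The 27 mural cells, which wrap small vessels, had Il6 at 890 CPM, with 565 UMIs in 23 cells and 65 in the highest, and Il11 at 309 CPM in 16 cells. Endothelial cells had Il6 at 224 CPM, from 41 UMIs in 8 of 19 cells, and 0 UMIs of Lif, Clcf1 or Il6ra. At a limit of 3 UMIs each 0 in this small group, that of Osm too, allows up to 16.4 CPM. The MuSC levels of Lif (1.67 CPM) and Il6ra (3.18 CPM) lie below that limit and that of Clcf1 (31.8 CPM) above it. Il27 and Il31 had 0 UMIs in MuSCs of sham and 0 and 1 in MuSCs of MOV.

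**Figure D4:**
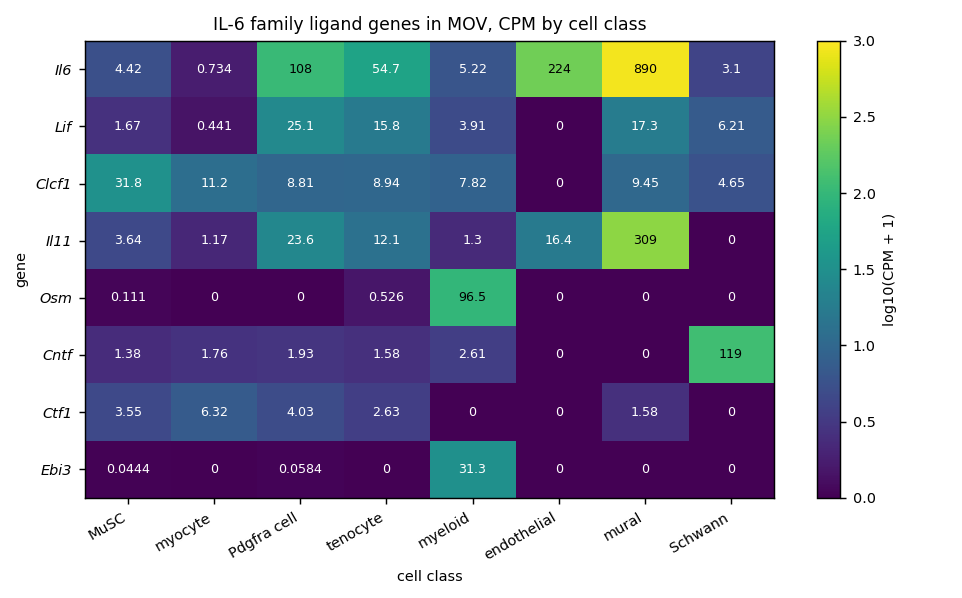
CPM of 8 ligand genes of the IL-6 family in 8 cell classes of the MOV library, coloured by log10(CPM + 1) and with the CPM written in each field, where 0 means 0 UMIs. Osm (96.5 CPM) and Ebi3 stand out in myeloid cells, Cntf (119 CPM) in Schwann-like cells, Il6 (890 CPM) and Il11 (309 CPM) in mural cells, while Clcf1 is highest in MuSCs (31.8 CPM).

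The order of the classes in MOV, fibre droplets aside, differed from gene to gene, and in the following neighbours are said to be apart where their 95% Poisson intervals do not overlap. These intervals cover counting error of the summed UMIs and not the spread between cells. Of the 41 Il6 UMIs of the 19 endothelial cells, for example, 13 lay in 1 cell. The order is thus a description of these cells. For Il6, mural (890 CPM), endothelial (224 CPM), Pdgfra (108 CPM) and tenocyte-like cells (54.7 CPM) were each apart, and myeloid cells, MuSCs, Schwann-like cells and myocytes followed at 5.22, 4.42, 3.10 and 0.734 CPM with neighbours not apart. For Lif, Pdgfra (25.1 CPM), mural (17.3 CPM) and tenocyte-like cells (15.8 CPM) were not apart from their neighbours. Clcf1 put MuSCs (31.8 CPM) apart above myocytes (11.2 CPM), and below these no neighbours were apart.

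Among the receptors, Il6st was highest in Schwann-like cells, at 256 CPM and apart from the 123 CPM of mural cells, and MuSCs (48.4 CPM), myeloid cells (37.8 CPM) and myocytes (32.7 CPM) were lowest. Il6ra was apart in myeloid cells and at 8.11 CPM or less elsewhere. Osmr was lowest in myeloid cells and Lifr in myocytes (8.96 CPM), each apart from the next, so the receptor chains did not share an order. Stat3 was highest in Schwann-like cells (268 CPM), apart from myeloid cells (170 CPM), and lowest in myocytes (67.7 CPM). Socs3 was at 338 CPM in endothelial and 299 CPM in mural cells, which were not apart, and again lowest in myocytes. In sham, the 15 tenocyte-like cells had Socs3 at 1174 CPM, with 166 UMIs, beside immediate-early markers at 24939 CPM, and the 10 Schwann-like cells had Stat3 at 355 CPM and Il6st at 304 CPM.

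The genes whose log2(CPM + 1) followed each member best across 18 groups of both libraries are given as a description, since these groups share libraries and depth. Il6 went with Ndufa4l2 (Pearson r = 0.90), C1s1 and Ednra, and Lif with Loxl3 (0.89), Izumo4 and Pdgfrb. Clcf1 went with Cebpz (0.98), Dancr and Abcb1b, and Stat3 with Son (0.98), Zbtb21 and Samd4b. Among the receptors, Osmr went with Rhoj (0.96), Serping1 and 1810055G02Rik, Il6st with 4932438A13Rik (0.97), Clstn1 and Pam, Il6ra with Tmem88 (0.91), Dock10 and Apba1, and Lifr with Ppp1r9b (0.92), Aldh3a2 and Rere. Socs3 went with Naprt (0.92), Jade1 and Ssbp4, and no member had another among its 3 closest genes.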

How the data were processed

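Single-cell 3′ gene expression libraries from sorted plantaris cells, 1 sham and 1 MOV, were analysed from the deposited matrices. The authors aligned reads to mm10 and wrote raw UMI counts per gene and cell with Cell Ranger 6.0.0, and their processing notes also name R 4.0.2 and Seurat 4.0.2. Total depth was 7302661 UMIs over 1100 sham cells and 88498487 UMIs over 3854 MOV cells.

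Cells above 10% mitochondrial UMIs (362 in sham, 794 in MOV) and doublets by scrublet score in scanpy 1.11.5 (the 4 and 75 with the highest scores) were removed, leaving 734 and 2985. Groups were set by marker UMIs, with at least 2 distinct markers and 2 marker UMIs per 10000 for MuSCs, and cells of more than 1 class were left out. Clusters were not used, so groups can differ from those of the study.

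UMI counts were summed per gene and group. With 1 library per condition there is no test across samples: ratios carry exact conditional 95% intervals (scipy 1.17.1) and shares exact binomial ones. The intervals of ratios were tested only on counts simulated from the Poisson model they assume. That simulation holds no spread between cells, so it does not show how well they cover these data. For shares, cells were downsampled to 2000 UMIs and those with fewer were dropped. A count of 0 was given a limit of 3 counts. Alternatives used edgeR 4.0.16 and DESeq2 1.42.0 scaling factors. The 9 genes and the wider lists were chosen with earlier results of these data known. All 9 are given in each comparison. From each wider list up to 4 called genes are named, those whose interval lies farthest from 0, and the genes of a direction with few calls were added after their values were seen. Of the wider lists, 2 genes that are counted among their members are not reported here.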

Additional observations from a re-analysis of the deposited data

Results flagged for a closer look

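The log2 ratio of MOV to sham for Socs3 lay on opposite sides of 0 in 2 cell classes. It was 0.89 (0.51 to 1.29) in MuSCs, which was not called, and -1.43 (-1.63 to -1.23) in Pdgfra cells, a difference of 2.32. The MuSC value was 0.02 as a mean over cells, 0.28 with a mitochondrial limit of 20% and 0.41 without shared barcodes, and the thinned shares were 11.7% in sham and 12.1% in MOV. In Pdgfra cells the summed immediate-early markers were at 10745 CPM in sham and 4011 CPM in MOV, and their part was not tested. Both ratios rest on 1 library per condition, and the difference was not tested.

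Stat3 changed sides between the libraries. The log2 ratio of Pdgfra cells to MuSCs was 0.19 (0.11 to 0.27) in MOV and -0.69 (-1.10 to -0.31) in sham, neither of them called, a difference of 0.89 that was not tested.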

How the results depend on the processing

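No paired analysis was possible because each condition was a single library. Over 10 other settings and 2 ways of leaving out shared barcodes, both added after seeing the data, none of the 39 member calls changed sign. For some settings this was fixed beforehand. Dropping the filter on low counts changes no ratio, and the TMM and DESeq2 shifts were too small to reverse a 2-fold call. These are the calls of MOV against sham in all and in quiescence-marker MuSCs and of the comparisons within MOV. The calls among sham cells and of MOV against sham Pdgfra cells are not among them: both Pdgfra comparisons were run under 5 settings, with the calls that changed given in the report, and the sham states under none. TMM and DESeq2 factors each ended 1 call and stricter marker limits 4. The mean over cells of each cell's CPM ended most calls, 9 of 39. The number of members called higher in MOV against sham MuSCs was 0, and 1 with a mitochondrial limit of 5% or without immediate-early cells (added after seeing the data); the number lower was 5, and 3 without cycling cells (also added). Stricter marker limits gave 1 lower in quiescence-marker MuSCs of MOV against sham (2 in the report). Within MOV, cycling MuSCs had 5 lower, but 2 as a mean over cells and 3 with stricter markers. Interferon MuSCs had 3 higher and 0 lower, but 1 and 1 as a mean over cells. MuSCs with quiescence markers had 2 higher, but 1 with a limit of 20%, with doublets kept, as a mean over cells or without shared barcodes, and 4 with edgeR TMM factors, DESeq2 size factors or stricter markers. They had 0 lower, but 1 as a mean over cells and 1 with stricter markers. Matrix MuSCs had 2 higher and 0 lower, but 1 and 1 as a mean over cells, and 1 lower with stricter markers. The causes were not tested. The depth of the sham library limits Il6, Lif and Il6ra most, at 9, 3 and 14 UMIs in all MuSCs.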
